A study of Homo sapiens with 6 samples.

Results

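MUC16, MUC1, MSLN, FOLR1, BCAM, WFDC2, PAX8, WT1, ESR1 and PGR are grouped here as markers of ovarian carcinoma and tissue of Mullerian descent. Several are read in pathology or as serum markers, and not all are specific to such tissue. These 10 genes of 22412 measured were taken by name. For each, the brightest probe set annotated to its symbol was read, and each of the 10 had 1 probe set. Transcript levels came from 6 single-colour arrays of SKOV3 cells, an established line from a human ovarian carcinoma. There were 3 arrays of cells with stable SND1 knockdown by the pLKO-based hairpin shSND1-#2, and 3 arrays of cells that stably carry the empty pLKO vector. SND1 encodes a protein with nuclease-like and tudor domains that acts in transcription and RNA processing. Both lines were kept in serum-containing McCoy's 5A and received no other treatment. The knockdown group therefore rests on 1 hairpin, and whether the lines are clones or pools is not stated. An extra number of unstated meaning stands in the title of 1 knockdown array, and the labels do not say that the arrays came from separate cultures. The p-values thus cover the spread between these arrays alone, and that spread may be technical.

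The Mullerian ducts of the embryo give rise to the oviduct, the uterus and the upper vagina, and most epithelial ovarian carcinomas carry the marks of that epithelium. PAX8 is a paired-box transcription factor of Mullerian, renal and thyroid epithelium, and WT1 is a zinc-finger factor retained in serous carcinoma and in mesothelium. MUC16 (the CA125 antigen), MUC1, mesothelin, folate receptor alpha and BCAM sit at the cell surface, where several of them are drug targets or serum markers. WFDC2 encodes the secreted marker HE4. ESR1 and PGR encode the oestrogen and progesterone receptors, which are read in pathology as signs of hormone-responsive tissue.

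All values below are the deposited log2 expression values, and a difference is knockdown minus vector control on that scale. SND1 itself measured 5.88, 5.71 and 5.99 on the 3 knockdown arrays, against 8.83, 8.61 and 8.80 on the 3 vector arrays. Its fall was at least 5.51-fold (log2 difference of -2.89 with SE 0.091, adjusted p = 1.3e-06, limma with Benjamini-Hochberg adjustment over all genes). Across genes, Pearson's r was 0.9981 to 0.9987 between arrays of the same group and 0.9845 to 0.9861 between arrays of the knockdown and vector groups. The 23 background control probe sets had mean levels between 2.38 and 6.28, with a median of 3.11. Their names grade them by GC content from GC03 to GC25. The level of 6.28 is that of GC03, with GC04 at 5.85, GC05 at 5.29 and all others at 4.39 or lower. It is therefore a strict cut, and genes were not matched to controls of their own GC content. A gene whose mean lay at or below 6.28 in both groups is called within the background range, and no fold is given for it. Where 1 group lay there, the fold is "at least" the brighter mean over 6.28. Levels of different genes are not compared, since each probe set has its own brightness.

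The marker genes split after SND1 knockdown. Levels are of RNA from whole cultures, so fewer cells with a transcript and less of it per cell cannot be told apart. MUC1, MSLN and ESR1 rose, and MUC16, FOLR1 and BCAM fell, each above the background range in at least 1 group. PAX8 was bright in both groups and did not pass the test. WFDC2, WT1 and PGR lay inside the background range in both groups, and of these only WT1 passed the test, with a small fall. In counts, 7 of the 10 genes passed an adjusted p of 0.05 (3 rose and 4 fell), where 32.0% of all genes tested did, 15.9% being higher and 16.1% lower. The knockdown and vector arrays did not overlap for 8 of the 10 genes, against 43.6% of all genes. A change of at least 2-fold on the fitted scale was found for 5 of the 10 (2 rose and 3 fell) and for 957 of all genes, or 4.27%. MUC16 is among the 5, though its fold over the background range is bounded only as at least 1.19. The 10 genes were chosen with earlier results of these data known, so their shares beside those of all genes are a description only. The shares of all genes also take in dim genes within the background range, while 7 of the 10 markers lay above it in at least 1 group. The median difference of the 10 was -0.0051, beside 0.0031 for all genes, with rises and falls on both sides of 0.

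**Figure D1:**
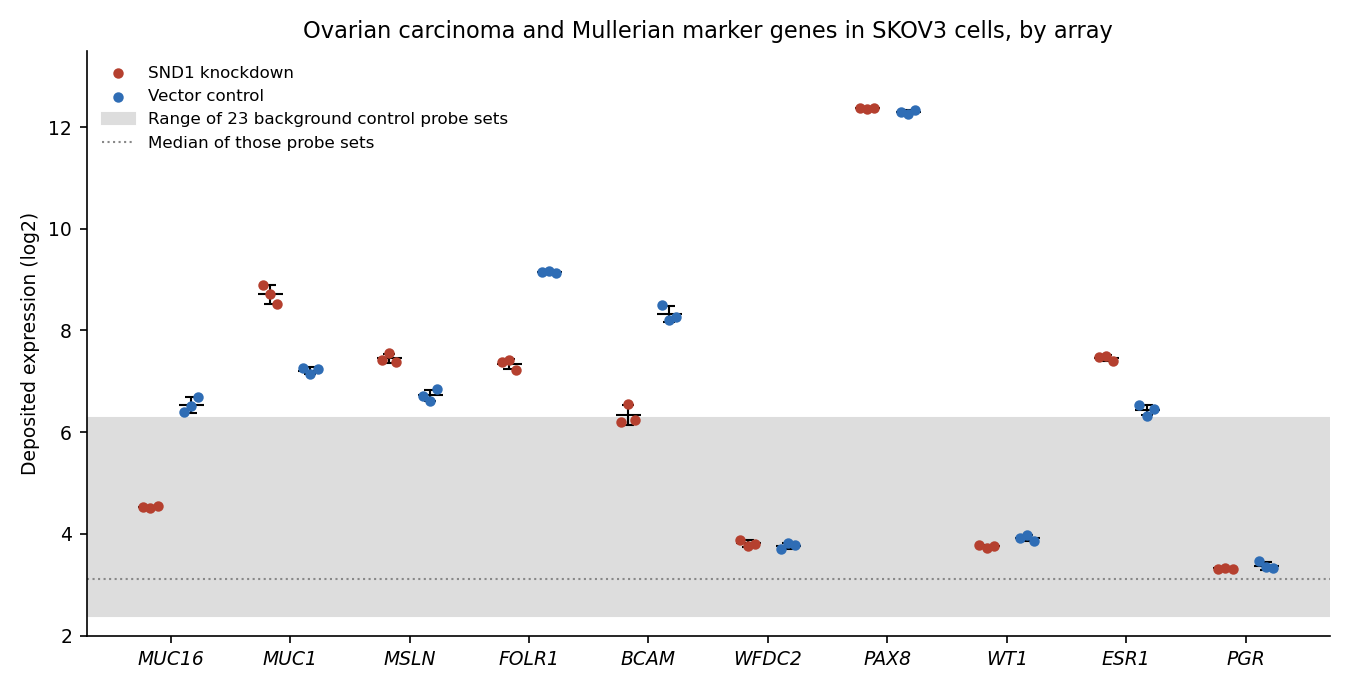
Deposited log2 expression of the 10 marker genes on each array, SND1 knockdown at the left and vector control at the right of each gene, with bars for the mean and SD (n = 3). The grey band is the range of the 23 background control probe sets, 2.38 to 6.28; WFDC2, WT1 and PGR lie inside it in both groups and MUC16 in the knockdown group only.

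MUC16 and MUC1, the surface mucins, moved in opposite directions. MUC16, a very large transmembrane mucin whose shed part is CA125, measured 4.53, 4.52 and 4.55 on the knockdown arrays, against 6.39, 6.51 and 6.69 on the vector arrays. The knockdown arrays were tightly grouped, and the lowest vector array was still far above them. The means were 4.53 ± 0.019 in the knockdown cells and 6.53 ± 0.15 in the vector cells (SD, n = 3 each). The fall was 2.00 on the log2 scale (SE 0.078, 95% interval -2.18 to -1.82, limma adjusted p = 3.1e-06). The knockdown mean lay within the background range, where 3 of the 23 control probe sets were brighter, so the fold is bounded as at least 1.19. Against the median control probe set instead, no bound applies and the fitted fold is 4.0.

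MUC1, a shorter transmembrane mucin of the apical surface of glandular epithelium, measured 8.89, 8.71 and 8.53 on the knockdown arrays, against 7.26, 7.13 and 7.24 on the vector arrays. The knockdown arrays were spread over a wider range than the vector arrays, but the lowest of them lay above every vector array. The means were 8.71 ± 0.18 in the knockdown cells and 7.21 ± 0.065 in the vector cells (SD, n = 3 each). MUC1 rose 2.83-fold (log2 difference 1.501 ± 0.093 (SE), 95% interval 1.28 to 1.72, limma adjusted p = 2.5e-05). Larger rises were found for 163 genes.

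Both surface mucins, and WFDC2 among the other genes, had an E-box of the form CAGGTG in a promoter window. These windows are shown because Snail- and ZEB-type factors recognise this hexamer. It was searched on both strands, and on the other strand it reads CACCTG. The windows are from RefSeq on GRCh38.p14 and run from 250 bases before to 50 bases after an annotated start. Capitals mark the hexamer, written as it reads 5′ to 3′ on the gene's strand. The MUC1 window is chr1:155192866-155193165 on the minus strand, the MUC16 window chr19:9065702-9066001 on the minus strand and the WFDC2 window chr20:45469503-45469802 on the plus strand.
MUC1: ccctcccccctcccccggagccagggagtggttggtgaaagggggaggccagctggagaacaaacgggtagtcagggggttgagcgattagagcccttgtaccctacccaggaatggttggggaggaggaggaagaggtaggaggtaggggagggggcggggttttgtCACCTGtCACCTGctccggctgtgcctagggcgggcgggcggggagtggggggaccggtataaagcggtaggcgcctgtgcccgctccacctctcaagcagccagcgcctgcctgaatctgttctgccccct
MUC16: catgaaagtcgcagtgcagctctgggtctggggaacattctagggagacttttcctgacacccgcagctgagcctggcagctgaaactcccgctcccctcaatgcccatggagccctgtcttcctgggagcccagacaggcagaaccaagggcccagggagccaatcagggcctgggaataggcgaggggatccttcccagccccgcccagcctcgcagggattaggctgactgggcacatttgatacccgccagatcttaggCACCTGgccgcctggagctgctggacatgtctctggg
WFDC2: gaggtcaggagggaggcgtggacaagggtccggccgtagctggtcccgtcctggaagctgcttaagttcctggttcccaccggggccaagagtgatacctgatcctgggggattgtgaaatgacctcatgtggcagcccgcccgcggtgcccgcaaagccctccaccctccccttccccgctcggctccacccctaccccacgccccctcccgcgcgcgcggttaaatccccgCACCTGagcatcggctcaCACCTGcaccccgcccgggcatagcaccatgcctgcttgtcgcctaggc

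In the MUC1 window shown the hexamer occurs in 2 copies separated by a single base, starting 82 and 75 bases before the start site. In the MUC16 window shown it occurs in 1 copy at base 14 of the transcript, and in that of WFDC2 in 2 copies, 17 bases before the start and at base 2. Windows were found for 8 of the 10 genes, 21 windows in all, and 5 of them in these 3 genes hold the hexamer. The 2 not shown are a MUC1 window that overlaps the one printed and holds the same copies, and a MUC16 window at another start, with a copy 159 bases before it. Among 35116 promoter windows of all genes, 20.6% hold it on either strand. The 3 genes with the hexamer include 1 that rose, 1 that fell and 1 within the background range. None of the 6 ESR1 windows holds it. A match describes letters in the window and is not a measured binding site.

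The other mucin genes were mostly dim. Of 18 measured, 16 lay inside the background range in both groups, 2 rose and 2 fell, and their median difference was 0.0054. Called were 22.2% of them, beside 32.0% of all genes. MUC5AC, a secreted gel-forming mucin, rose at least 1.44-fold (log2 difference of 1.53 with SE 0.058, adjusted p = 2.8e-06), with means of 6.81 in the knockdown cells and 5.28 in the vector cells. MUCL3 fell at least 1.21-fold (log2 difference of -0.65 with SE 0.17, adjusted p = 0.025), though its call was lost in 5 of the alternative settings, with adjusted p up to 0.086, among them the omission of knockdown array 2 or 3 or of vector array 1 or 2. MUC7 fell and MUC20 rose within the background range, with log2 differences of -0.74 (adjusted p = 0.0005) and 0.28 (adjusted p = 0.0078).

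MSLN encodes mesothelin, a surface protein of mesothelium and many serous carcinomas that binds MUC16. It measured 7.42, 7.56 and 7.38 on the knockdown arrays, against 6.71, 6.62 and 6.84 on the vector arrays. The groups were separate, and the gap between them was wider than either group's range. The means were 7.45 ± 0.093 in the knockdown cells and 6.72 ± 0.11 in the vector cells (SD, n = 3 each), a rise of 1.66-fold (log2 difference 0.73 ± 0.075 (SE), 95% interval 0.55 to 0.91, limma adjusted p = 0.0003). Mesothelin and its ligand MUC16 thus had differences of opposite sign. The neighbouring paralog MSLNL lay within the background range, with a log2 difference of 0.04 ± 0.047 (SE) and adjusted p = 0.61.

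Markers of mesothelium were split. Of 16 measured, 4 rose and 4 fell (median difference 0.028), and 12 lay inside the background range in both groups, the defining marker CALB2 (calretinin) among them at 3.25 in the knockdown cells and 3.21 in the vector cells. The mean log2 level over the list ran from 5.265 to 5.317 on the knockdown arrays, against 5.18 to 5.315 on the vector arrays, and its part in the rise of MSLN was not tested. The uroplakin UPK3B rose 2.55-fold (log2 difference of 1.35 with SE 0.05, adjusted p = 2.4e-06). KRT5, a basal keratin, rose 5.36-fold (log2 difference of 2.42 with SE 0.14, adjusted p = 1.9e-05), and THBD, thrombomodulin, 2.21-fold (log2 difference of 1.15 with SE 0.11, adjusted p = 0.00019). LRRN4, a leucine-rich repeat membrane protein, fell at least 3.58-fold (log2 difference of -2.82 with SE 0.084, adjusted p = 1.1e-06).

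FOLR1 encodes folate receptor alpha, a lipid-anchored receptor that takes folate into the cell by endocytosis. It measured 7.37, 7.42 and 7.23 on the knockdown arrays, against 9.14, 9.17 and 9.14 on the vector arrays. The vector arrays were almost identical and every knockdown array lay far below them. The means were 7.34 ± 0.10 in the knockdown cells and 9.15 ± 0.015 in the vector cells (SD, n = 3 each). FOLR1 fell 3.5-fold, with both groups above the background range (log2 difference -1.81 ± 0.06 (SE), 95% interval -1.95 to -1.67, limma adjusted p = 1.5e-06). It had the smallest adjusted p of the 10 genes.

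FOLR3 and FOLR2, paralogs that lie on either side of FOLR1 on chromosome 11, fell as well, but within the background range. FOLR3, a secreted folate-binding protein, measured 4.34, 4.69 and 4.53 on the knockdown arrays, against 5.80, 5.80 and 5.73 on the vector arrays (log2 difference of -1.26 with SE 0.088, adjusted p = 4.5e-05). FOLR2, folate receptor beta, measured 5.00, 4.70 and 4.78 on the knockdown arrays, against 5.41, 5.56 and 5.36 on the vector arrays (log2 difference of -0.62 with SE 0.09, adjusted p = 0.0017). The 3 genes are close in sequence, and whether the probes separate them was not tested.

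Among 23 other genes of folate uptake and use, 5 rose and 8 fell (median difference -0.026), or 56.5% called beside 32.0% of all genes. MTHFD1, the cytosolic enzyme that interconverts folate one-carbon units, fell 1.99-fold (log2 difference of -0.99 with SE 0.066, adjusted p = 3.6e-05). TYMS, thymidylate synthase, fell 1.35-fold (log2 difference of -0.43 with SE 0.051, adjusted p = 0.00056). CUBN, cubilin, an endocytic receptor, rose within the background range (log2 difference of 0.62 with SE 0.053, adjusted p = 0.00011). The reduced folate carrier SLC19A1, named after its value was seen, fell within the background range (log2 difference of -0.18 with SE 0.051, adjusted p = 0.03). Over the alternative settings, 2 to 6 genes of the list were called higher and 4 to 8 lower.

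BCAM encodes the Lutheran glycoprotein, an immunoglobulin-type receptor for laminin alpha 5. It measured 6.21, 6.56 and 6.24 on the knockdown arrays, against 8.50, 8.20 and 8.27 on the vector arrays. The knockdown arrays were all lower than the vector arrays, and only 1 of them lay above 6.28. The means were 6.34 ± 0.20 in the knockdown cells and 8.32 ± 0.16 in the vector cells (SD, n = 3 each). BCAM fell 3.96-fold (log2 difference -1.99 ± 0.12 (SE), 95% interval -2.26 to -1.71, limma adjusted p = 2e-05). Its knockdown mean lay just above 6.28, so this fold is near the point where only a bound would be given. BCAM varied most of the 10 genes within a group, with an SD of 0.196 among the knockdown arrays, while the smallest SD, 0.010, was that of PAX8 in the same arrays.

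Of 17 laminin and adhesion genes related to BCAM, 4 rose and 7 fell (median difference -0.11), or 64.7% called beside 32.0% of all genes. LAMB1, the laminin beta 1 chain, rose 2.64-fold (log2 difference of 1.40 with SE 0.046, adjusted p = 1.5e-06). LAMA2, the laminin alpha 2 chain, rose within the background range, with means of 6.07 in the knockdown cells and 4.38 in the vector cells (log2 difference of 1.69 with SE 0.043, adjusted p = 5.9e-07). The integrin chain ITGA6, part of other laminin receptors, rose 1.41-fold (log2 difference of 0.50 with SE 0.055, adjusted p = 0.00041). ALCAM, an immunoglobulin-type adhesion molecule like BCAM, fell 1.31-fold (log2 difference of -0.39 with SE 0.053, adjusted p = 0.0012). The gene of BCAM's ligand chain, LAMA5, shares its probe set with a microRNA and was not used here.

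**Figure D2:**
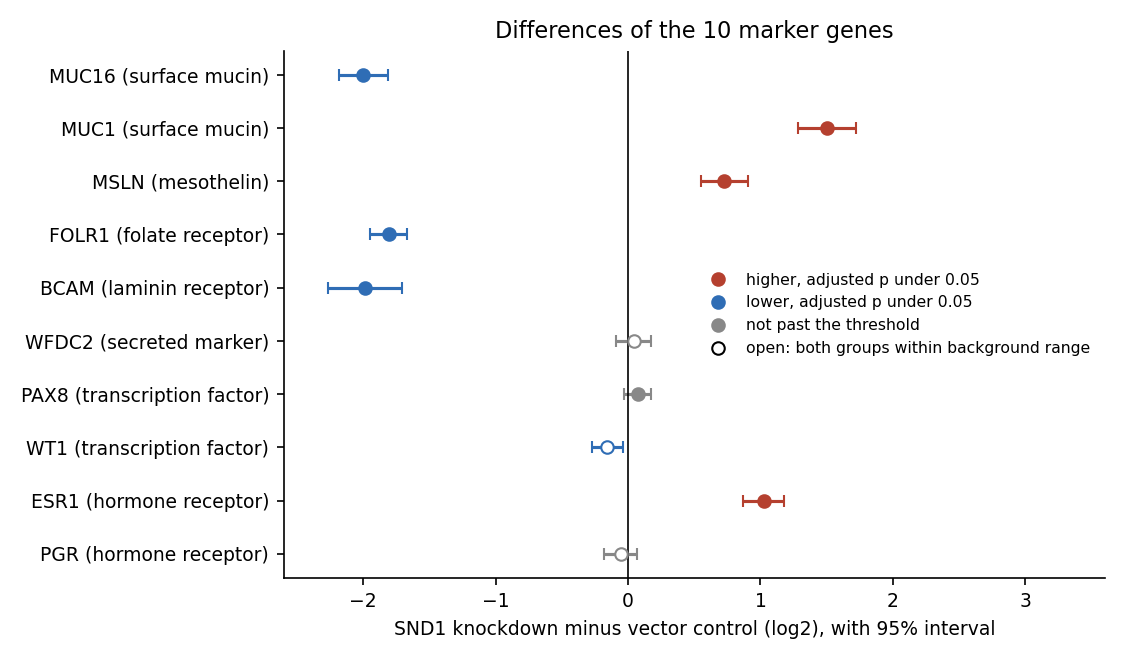
Difference of each marker gene, SND1 knockdown minus vector control on the log2 scale, with its 95% interval from limma (n = 3 arrays per group); open symbols mark genes within the background range in both groups. MUC16, FOLR1 and BCAM lie near -2, MUC1, MSLN and ESR1 lie between 0.73 and 1.5, and the other 4 lie near 0.

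WFDC2, the gene of the serum marker HE4, measured 3.88, 3.75 and 3.81 on the knockdown arrays, against 3.71, 3.82 and 3.79 on the vector arrays. The groups overlapped, and both lay within the background range, where 7 of the 23 control probe sets were brighter than either mean. The log2 difference was 0.044 ± 0.056 (SE), with a 95% interval of -0.088 to 0.18 and limma adjusted p = 0.64. A level within the background range does not show that the transcript was missing.

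The genes listed with WFDC2, mostly WAP-domain and inhibitor genes, were also dim: 18 of 19 lay inside the background range in both groups. The list also holds SEMG1 and SEMG2, and WFDC1, WFIKKN1 and WFIKKN2 lie on other chromosomes than WFDC2. None rose and 1 fell, or 5.26% called beside 32.0% of all genes. That 1 was SPINT3 (log2 difference of -0.24 with SE 0.067, adjusted p = 0.03), a call lost in 7 alternative settings, among them the omission of knockdown array 2 or 3 or of vector array 1 or 2. SLPI, an antiprotease of the same fold, was bright at 13.89 in the knockdown cells and 14.32 in the vector cells, with a log2 difference of -0.43 ± 0.17 (SE) and adjusted p = 0.11. Without vector array 1 the SLPI difference was -0.21 (adjusted p = 0.079), and without vector array 3 it was -0.58, just past the test at an adjusted p that rounds to 0.05.

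Of 23 other secreted tumour markers, 5 rose and 4 fell (median difference 0.042), or 39.1% called beside 32.0% of all genes. GDF15, a stress-induced cytokine, rose at least 1.75-fold (log2 difference of 2.47 with SE 0.067, adjusted p = 8.3e-07). SPP1, osteopontin, rose 3.05-fold (log2 difference of 1.61 with SE 0.13, adjusted p = 0.0001). It measured 15.939, 16.075 and 16.015 on the knockdown arrays. A log2 value above 16 is beyond a scanner's own range, so this fold depends on how the deposited values were scaled. The protease inhibitor TIMP1 fell at least 1.62-fold (log2 difference of -1.02 with SE 0.056, adjusted p = 1.4e-05), and the cytokine MIF fell 1.78-fold (log2 difference of -0.84 with SE 0.053, adjusted p = 2.8e-05).

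Other surface antigens of ovarian tumours moved in both directions: 4 rose and 5 fell of 18 measured (median difference -0.037). CDH6, a cadherin of kidney and ovarian tumours, measured 4.68, 4.89 and 4.64 on the knockdown arrays, against 13.31, 13.84 and 13.89 on the vector arrays. Its knockdown level was within the background range, and its fall was at least 169-fold (log2 difference of -8.94 with SE 0.16, adjusted p = 1.8e-07). EPCAM, an epithelial adhesion molecule, rose 7.59-fold (log2 difference of 2.92 with SE 0.10, adjusted p = 2.2e-06). CD24, a small mucin-like antigen, fell 4.06-fold (log2 difference of -2.02 with SE 0.12, adjusted p = 2.3e-05), and F3, tissue factor, fell 2.3-fold (log2 difference of -1.20 with SE 0.052, adjusted p = 4.8e-06).

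PAX8, the lineage factor of Mullerian epithelium, was bright on every array. It measured 12.37, 12.36 and 12.38 on the knockdown arrays, against 12.30, 12.26 and 12.33 on the vector arrays. Each knockdown array lay slightly above each vector array, yet the difference of 0.072 ± 0.044 (SE) did not pass the test (limma adjusted p = 0.29). Its 95% interval, -0.031 to 0.17, limits any change of this probe set on the deposited scale to a small fraction of the changes of MUC16, FOLR1 and BCAM. PAX8 was the only gene of the 7 above background whose difference missed the threshold.

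Partners and targets of PAX8 named in other tissues and lines gave 5 rises and 3 falls among 22 measured (median difference 0.008), or 36.4% called beside 32.0% of all genes. MECOM, a zinc-finger factor that works with PAX8 in ovarian cancer cells, rose 2.28-fold (log2 difference of 1.19 with SE 0.047, adjusted p = 3.4e-06). SOX17, another Mullerian partner, was at 7.79 in the knockdown cells and 7.80 in the vector cells, with a log2 difference of -0.0037 ± 0.094 (SE) and adjusted p = 0.99. PAX2, a close relative of PAX8, lay within the background range (log2 difference 0.024 ± 0.045 (SE), adjusted p = 0.77). YAP1 and TEAD1, a coactivator and its DNA-binding partner, fell 1.94-fold (adjusted p = 1.1e-05) and 1.52-fold (adjusted p = 5.6e-05), and RB1, the retinoblastoma gene, rose 1.39-fold (adjusted p = 0.00028).

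Of 16 measured genes listed here under Mullerian and gonadal development, 3 rose and 2 fell, with a median difference of 0.0029. Called were 31.2% of them, beside 32.0% of all genes, and not every gene listed is specific to that development. Beside MECOM, WNT7A, a ligand that patterns the female duct, rose 1.64-fold (log2 difference of 0.71 with SE 0.059, adjusted p = 9.8e-05). BHLHE41, a more general helix-loop-helix repressor on this list, rose at least 2.54-fold (log2 difference of 2.07 with SE 0.087, adjusted p = 4.3e-06). GATA6, a zinc-finger factor of gonadal and endodermal tissue, fell 2.48-fold (log2 difference of -1.31 with SE 0.084, adjusted p = 3e-05).

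WT1 measured 3.78, 3.73 and 3.77 on the knockdown arrays, against 3.91, 3.97 and 3.86 on the vector arrays. The groups did not overlap, but both lay within the background range, with 7 control probe sets brighter than the knockdown mean and 6 brighter than the vector mean. The difference of -0.16 ± 0.049 (SE) passed narrowly (95% interval -0.27 to -0.042, limma adjusted p = 0.046). The call was lost in 9 of the 13 alternative settings that gave a value, the omission of any 1 of the 6 arrays among them, with adjusted p between 0.058 and 0.18. The transcript WT1-AS, which runs from the same locus on the other strand, was also within the background range (log2 difference 0.0034 ± 0.05 (SE), adjusted p = 0.97).

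Genes known as partners or targets of WT1 in kidney and other tissues fell more often than they rose: 10 of 20 fell and 3 rose, with a median difference of -0.21, beside 16.1% lower and 15.9% higher among all genes. SULF2, which edits heparan sulfate, fell 2.28-fold (log2 difference of -1.19 with SE 0.051, adjusted p = 4.4e-06). The growth factor VEGFA fell 1.54-fold (log2 difference of -0.63 with SE 0.053, adjusted p = 0.00011), and BCL2, an inhibitor of apoptosis, fell within the background range (log2 difference of -1.26 with SE 0.11, adjusted p = 0.00011). SPRY1, a feedback inhibitor of receptor signalling, rose at least 2.78-fold (log2 difference of 1.68 with SE 0.18, adjusted p = 0.00033). WT1 itself was within the background range in both groups, so these genes are given for their own values only.

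ESR1, the oestrogen receptor alpha gene, measured 7.478, 7.502 and 7.401 on the knockdown arrays, against 6.53, 6.32 and 6.46 on the vector arrays. All 6 arrays lay above 6.28, and the knockdown arrays were the higher ones without overlap. The means were 7.46 ± 0.052 in the knockdown cells and 6.44 ± 0.10 in the vector cells (SD, n = 3 each). ESR1 rose 2.03-fold (log2 difference 1.02 ± 0.065 (SE), 95% interval 0.87 to 1.18, limma adjusted p = 2.9e-05). PGR, the progesterone receptor gene, which is an oestrogen-induced gene in breast cells, measured 3.31, 3.34 and 3.32 on the knockdown arrays, against 3.46, 3.34 and 3.32 on the vector arrays. These overlapped within the background range, where 10 of the 23 control probe sets were brighter than either mean. Its log2 difference was -0.054 ± 0.053 (SE), with a 95% interval of -0.18 to 0.071 and limma adjusted p = 0.53.

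Among 15 other nuclear and steroid receptor genes, 2 rose and 3 fell (median difference -0.02), or 33.3% called beside 32.0% of all genes. The second oestrogen receptor gene, ESR2, lay within the background range (log2 difference -0.065 ± 0.044 (SE), adjusted p = 0.34). NR3C2, the mineralocorticoid receptor, rose at least 1.91-fold (log2 difference of 1.61 with SE 0.079, adjusted p = 8.2e-06), and NR3C1, the glucocorticoid receptor, fell 1.52-fold (log2 difference of -0.60 with SE 0.045, adjusted p = 6e-05). PGRMC2, a membrane protein linked to progesterone, fell 1.51-fold (log2 difference of -0.59 with SE 0.088, adjusted p = 0.0018), and RORA, an orphan receptor, fell within the background range (log2 difference -0.30 ± 0.058 (SE), adjusted p = 0.0066).

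Genes known to respond to oestrogen in breast cancer cells went both ways, 7 higher and 7 lower of 30 measured, with a median difference of 0.0088. Called were 46.7% of them, beside 32.0% of all genes, and the list was not split by the direction of its known responses. All 7 that rose were above the background range in at least 1 group, against 3 of the 7 that fell. Among the rises, CCN5, named after its value was seen, was only just above it, with a knockdown mean of 6.30. CA12, a carbonic anhydrase, rose 4.3-fold (log2 difference of 2.10 with SE 0.076, adjusted p = 2.2e-06), and CTSD, cathepsin D, rose 2.85-fold (log2 difference of 1.51 with SE 0.062, adjusted p = 4e-06). CTSD measured 15.846, 16.008 and 15.851 on the knockdown arrays, so its fold has the same limit as that of SPP1. NRIP1, a corepressor of nuclear receptors, rose 2.25-fold (log2 difference of 1.17 with SE 0.056, adjusted p = 7.6e-06). SLC7A5, an amino acid transporter, fell 3.49-fold (log2 difference of -1.80 with SE 0.082, adjusted p = 6.2e-06). With each array centred on its median, 11 of the 30 were higher. That centring also moved the split over all genes, to 4654 higher and 2827 lower (62.2% of calls higher), against 3558 higher and 3608 lower (49.7%) with the deposited values. The directions of the 6 marker genes called above background were the same under both.

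**Figure D3:**
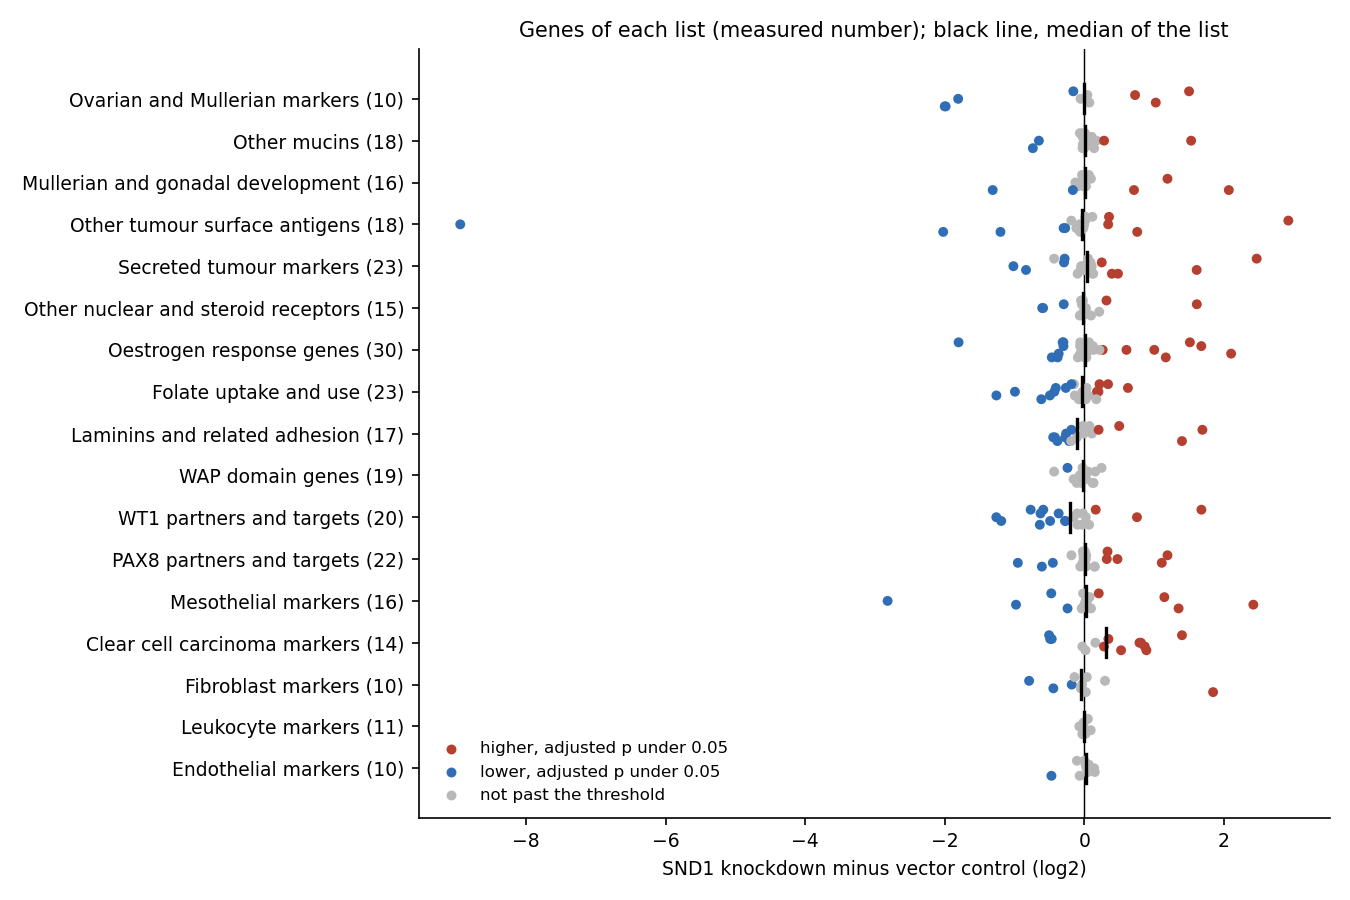
Difference of every measured gene of the marker genes and 16 related lists, SND1 knockdown minus vector control on the log2 scale, with the number measured in brackets and a black line at each list's median. Most list medians lie near 0 with called genes on both sides; CDH6 at -8.94 is the point farthest from 0.

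The measured genes on either side of each marker were read to see whether a change covered the locus, in the gene order of RefSeq on GRCh38.p14. Among all genes, 15.9% were higher and 16.1% lower. Of the 10 measured genes nearest to MUC16, 5 on each side, none passed the test, and its direct neighbours MBD3L1 and OR1M1 had log2 differences of 0.011 and -0.023 within the background range. Around MSLN, 1 of 10 neighbours was lower and none higher, and CIAO3, on the side away from MSLNL, had a log2 difference of -0.039 (adjusted p = 0.62). Around MUC1 none of 10 rose and 3 fell, opposite to MUC1 itself, with TRIM46 at -0.036 and MIR92B at -0.25 next to it, neither past the test. Without knockdown array 3, MIR92B passed at -0.42 (adjusted p = 0.037).

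Several neighbours of FOLR1, BCAM and ESR1 changed in the same direction as the marker. Around FOLR1, 6 of 10 neighbours fell and none rose, with a median difference of -0.38, where 16.1% of all genes fell. Those 6 included INPPL1, a lipid phosphatase gene 2 places away, which fell 1.86-fold (log2 difference of -0.90 with SE 0.052, adjusted p = 1.9e-05) and was named after its value was seen. The paralogs FOLR3 and FOLR2 were also among the 6, as was LRTOMT, chosen by its value. The means of these dim genes were at or below 6.28 for knockdown and vector cells alike. Around BCAM, 6 of 10 fell and none rose (median -0.20). Most of these 6 were dim, with knockdown and vector means at or below 6.28. On its sides lay CBLC, within the background range at -0.022 (adjusted p = 0.85), and NECTIN2, an adhesion receptor, which fell 1.36-fold (log2 difference of -0.45 with SE 0.087, adjusted p = 0.0065).

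Around ESR1, 4 of 10 rose and none fell (median 0.16), where 15.9% of all genes rose. SYNE1, on one side, rose within the background range (log2 difference of 0.36 with SE 0.052, adjusted p = 0.0017), and CCDC170, on the other, did so with a call lost in 8 alternative settings, among them the omission of any 1 array other than knockdown array 1 (log2 difference of 0.21 with SE 0.06, adjusted p = 0.036). DCPH1, 2 places from ESR1 and named after its value was seen, rose 2.69-fold (log2 difference of 1.43 with SE 0.088, adjusted p = 2.4e-05). Neighbouring genes are not independent of each other, and the counts are given as a description.

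Neighbours were also read for the other 4 markers, beside 15.9% higher and 16.1% lower among all genes. PAX8 had 1 higher and none lower of 10. The higher one was FOXD4L1, beside PAX8 and within the background range at 0.20 (adjusted p = 0.05 after rounding), a call lost in 11 alternative settings, the omission of any 1 array among them. PSD4, on the other side, had a log2 difference of 0.063 (adjusted p = 0.5). WT1 had 4 higher and none lower, with LINC03031 next to it at -0.016 (adjusted p = 0.92). WFDC2 had 1 higher and 2 lower. PGR had 1 higher and 4 lower. PIGT, which helps attach lipid anchors to surface proteins and lies beside WFDC2, fell 1.39-fold (log2 difference of -0.47 with SE 0.043, adjusted p = 0.00016).

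**Figure D4:**
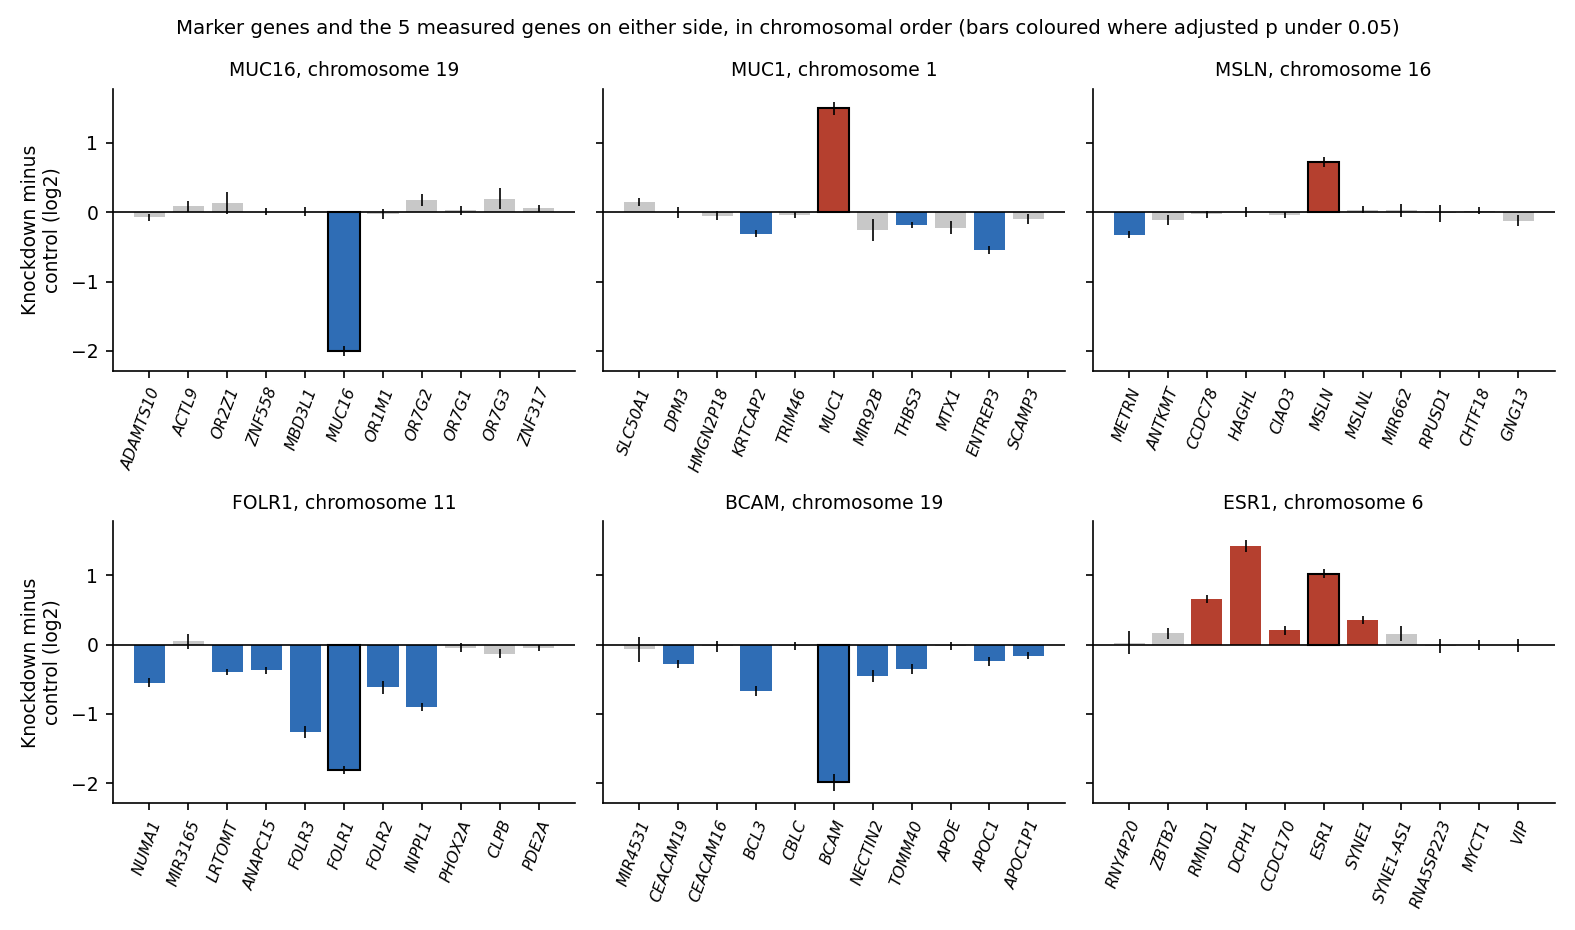
Difference, SND1 knockdown minus vector control on the log2 scale with SE bars, of the 6 marker genes called above background (outlined) and the 5 measured genes on either side in chromosomal order. Bars are coloured where the adjusted p passed 0.05: 6 of 10 neighbours fell beside FOLR1 and beside BCAM, 4 of 10 rose beside ESR1, and none passed beside MUC16. The counts for FOLR1, BCAM and ESR1 include dim genes of the background range.

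Markers of other cells and of another ovarian tumour type were read beside these genes. Fibroblast and endothelial markers lay within the background range for 10 of 10 in each list, and leukocyte markers for 10 of 11, with none of the leukocyte genes past the test and PTPRC (CD45) at a difference of -0.029 ± 0.052 (SE). The mean log2 level over the fibroblast list ran from 4.04 to 4.12 on the knockdown arrays, against 3.98 to 4.06 on the vector arrays. Over the leukocyte list it ran from 4.165 to 4.245 on the knockdown arrays, against 4.197 to 4.222 on the vector arrays. Over the endothelial list it ran from 3.715 to 3.776 on the knockdown arrays, against 3.75 to 3.797 on the vector arrays, and the receptor KDR fell (log2 difference of -0.47 with SE 0.052, adjusted p = 0.00042). Within the background range LUM, lumican, rose by 1.85 (adjusted p = 8.3e-07), and COL1A1, COL1A2 and POSTN fell by 0.44, 0.18 and 0.79 on the log2 scale, the call of COL1A2 being lost in 7 alternative settings, among them the omission of knockdown array 1 or 2 or of vector array 2 or 3.

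Of 14 measured markers of clear cell carcinoma, 8 rose and 3 fell, with a median difference of 0.31, the farthest from 0 of the lists read here. Beside LAMB1, the annexin ANXA4 rose 1.82-fold (log2 difference of 0.87 with SE 0.062, adjusted p = 4.7e-05) and the racemase AMACR rose 1.44-fold (log2 difference of 0.53 with SE 0.052, adjusted p = 0.00024). GLRX, glutaredoxin, rose within the background range (log2 difference of 0.89 with SE 0.063, adjusted p = 4.6e-05). These genes were picked for their small adjusted p, and all of them rose. The falls, picked here by direction, were of VCAN (-0.47), IL6 (-0.49) and CRYAB (-0.50) on the log2 scale. IL6 and CRYAB were within the background range. So was NAPSA, also picked by its value, which did not pass (log2 difference of 0.017, adjusted p = 0.88). The list was 78.6% called, beside 32.0% of all genes, and was chosen with earlier results of these data known.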

How the data were processed

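Transcript levels were measured on 6 Affymetrix arrays, 3 of SND1 knockdown and 3 of vector control SKOV3 cells, grouped by the labels. The deposited log2 values per probe set were made by the authors with RMA, per the submitters' processing notes; its version and the array's genome build are not given in the sources used here. Scanner files were not used here. Of 70523 probe sets, 858 hold a log2 value above 16, beyond a scanner's own range, so fold sizes depend on that unstated scaling. Of these probe sets 23781 have 1 gene symbol, 1543 several and 45199 none; 21497 matched the RefSeq table by Entrez identifier and 306 symbols were updated. Probe sets with several symbols were left out except that of SND1, also annotated to SND1-IT1, and the brightest of each gene was kept.

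Differences were fitted with limma 3.58.1 (lmFit, eBayes) in R 4.3.3 over 22412 genes, 2-sided, with Benjamini-Hochberg adjustment at 0.05; steps were tested on simulated data. Precision is limited by the number of arrays. The genes and lists were chosen with earlier results of these data known. Named are SND1, the 10 markers, up to 4 genes per list by smallest adjusted p, the nearest measured genes on either side of each marker (those beside PGR are not reported here), and genes on which a marker's role turns, such as ESR2, FOLR2 and SOX17; SLPI is of the WFDC list. A few further genes were picked with their values known and are marked where they occur. Alternatives omitted each array, added a replicate block, changed the scaling, the filter, the choice of probe set and the limma settings. Figures were drawn with matplotlib 3.10.9.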

Additional observations from a re-analysis of the deposited data

How the results depend on the processing

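Over 15 alternatives, 6 or 7 of the 10 marker genes were called, against 7 with the deposited values, and in every one MUC1, MSLN and ESR1 rose and MUC16, FOLR1 and BCAM fell. Leaving out each array in turn gave 6 called each time, 3 higher and 3 lower. Only the call of WT1 was lost, in 9 of the 13 alternatives that gave it a value. The filter on background left WT1, WFDC2 and PGR without a value, as did that on the median of all genes. Replicate numbers showed no shared deviation: arrays with the same number correlated at -0.02, -0.036 and -0.061 in their deviations from the group mean. These values cannot show whether the arrays were handled in pairs, which the labels do not state. With the replicate number as a block, 6 genes were called. Of 76 other named genes, 68 kept their side of the threshold throughout, 8 did not, and no called gene changed sign. The small difference of PGR, which never passed, ran from -0.081 to 0.0078. Array background limits what can be said of dim genes, 3 of the 10 markers among them, and the bound on MUC16 depends on it.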
